A study of Mus musculus with 76 samples.

Results

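Single interneurons of the neonatal mouse hippocampus were divided by their Fos transcript level into 43 Fos-high cells, with Fos at 10 CPM or more (CPM, the gene's count scaled by the cell's total), and 19 Fos-low cells, with Fos below 10 CPM. These 62 cells are the labelled cells that passed the authors' quality filter and bear no contamination mark, out of 76 labelled cells in all. The cells were chosen by their measured Fos level, so the Fos values are a description, and Fos was removed before every test.

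Patch-seq was used: each recorded cell was emptied through its pipette and its RNA sequenced, with libraries made by Nextera XT. All pups were at postnatal day 4 and untreated, and all carried Nkx2.1-Cre with the Ai14 tdTomato reporter. This Cre labels interneurons of the medial ganglionic eminence (MGE), and red cells were taken from the CA1 pyramidal cell layer, where the design counts on enrichment for putative parvalbumin basket cells. The 4 conditions were female and male pups with gephyrin S268/270A, called Mut, and female and male pups with wild-type gephyrin, called WT; gephyrin is the scaffold protein of inhibitory synapses. The labels name no animal, so cells of one condition share an unknown number of pups and are not replicates.

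Fos is the archetypal immediate early gene: its transcription starts within minutes of synaptic activity or growth factor signalling, through calcium- and kinase-driven factors already present on its promoter, and it needs no new protein. Fos protein pairs with Jun proteins to form the AP-1 transcription factor, and other immediate early genes encode further transcription factors, such as Egr1, or effectors that act at synapses or switch off kinases, such as Dusp1.

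The promoters of the gene that defines the groups and of the 2 immediate early genes with an unadjusted p under 0.05 in the comparison, Jun and Dusp1, are shown as the 250 bases before the gene's start (RefSeq, GRCm38.p6, read 5′ to 3′ on the gene's strand). They lie at chr12:85473640-85473889 (plus strand) for Fos, chr4:95052223-95052472 (minus strand) for Jun and chr17:26508473-26508722 (minus strand) for Dusp1. Capitals mark letters of the cAMP response element, the full site TGACGTCA or a short site, TGACG or CGTCA.
Fos: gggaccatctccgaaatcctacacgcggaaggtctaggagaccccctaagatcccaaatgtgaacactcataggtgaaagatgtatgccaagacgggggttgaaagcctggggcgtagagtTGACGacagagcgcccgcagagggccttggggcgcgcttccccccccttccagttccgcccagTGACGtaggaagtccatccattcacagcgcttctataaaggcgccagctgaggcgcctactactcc
Jun: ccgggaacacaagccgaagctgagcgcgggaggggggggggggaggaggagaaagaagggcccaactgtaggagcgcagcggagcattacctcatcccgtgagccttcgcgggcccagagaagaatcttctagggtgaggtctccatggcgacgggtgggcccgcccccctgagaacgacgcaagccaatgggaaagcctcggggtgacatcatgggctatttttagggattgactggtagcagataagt
Dusp1: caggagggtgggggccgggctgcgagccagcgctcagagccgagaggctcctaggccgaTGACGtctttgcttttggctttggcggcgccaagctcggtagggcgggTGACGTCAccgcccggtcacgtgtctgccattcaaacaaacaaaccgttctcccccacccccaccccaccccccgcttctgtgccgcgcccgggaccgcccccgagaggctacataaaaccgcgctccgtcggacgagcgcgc
The Fos window held the short site TGACG 129 and 66 bases before the start. The Dusp1 window held the full site 143 bases before the start and a short site at 191, and the Jun window held none of the motifs searched. Both strands were searched, and the full site contains both short sites. Of 32851 mouse promoter windows of this length, 1.55% held the full site, 17.8% a short site, 6.75% the AP-1 letters TGANTCA and 1.47% the CArG box bound by serum response factor. Among 68 windows of 45 immediate early genes, Fos among them, 7 held the full site, 34 a short site, 2 the AP-1 letters and 6 the CArG box. These matches are descriptions of sequence only.

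Fos levels left a gap around the threshold. The Fos-high cells held between 31.6 and 1765 CPM with a median of 391 CPM, and the Fos-low cells between 1.12 and 7.34 CPM with a median of 4.26 CPM. In counts, Fos-high cells held 144 to 11642 with a median of 2766, against 11 to 48 with a median of 26 in Fos-low cells. No Fos-low cell was at 0, which is why the group is not called negative here. The cells nearest the threshold were Mut male cell 18 at 31.6 CPM and WT male cell 4 at 39.3 CPM above it, and Mut male cell 8 at 7.34 CPM and Mut female cell 18 at 7.09 CPM below it. A limit of 10 TPM in the deposited normalized table gave the same share of Fos-high cells in each condition.

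**Figure D1:**
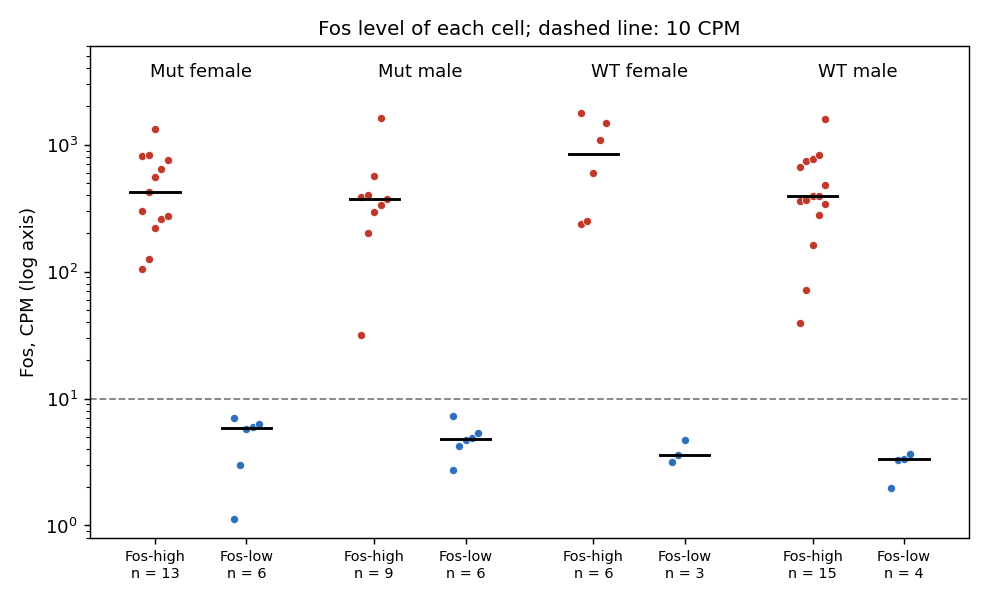
Fos in CPM on a log axis for each of the 62 cells, with one point per cell, a bar at the median and a dashed line at the threshold of 10 CPM, for the Fos-high and Fos-low cells of each condition. The Fos-high cells start at 31.6 CPM and the Fos-low cells end at 7.34 CPM, with no cell between.

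Fos-high cells made up 13 of 19 cells in Mut females (68.4%, exact 95% binomial interval 43.4 to 87.4%) and 9 of 15 in Mut males (60%, 32.3 to 83.7%). They made up 6 of 9 cells in WT females (66.7%, 29.9 to 92.5%) and 15 of 19 in WT males (78.9%, 54.4 to 93.9%). By genotype the shares were 22 of 34 Mut cells (64.7%, 46.5 to 80.3%) and 21 of 28 WT cells (75.0%, 55.1 to 89.3%), and the intervals overlap. At a threshold of 5 CPM the order turned, with 28 of 34 Mut cells (82.4%) and 21 of 28 WT cells (75.0%). The intervals cover counting error only. Within the Fos-high cells, the median Fos level was 424 CPM in Mut females, 376 CPM in Mut males, 844 CPM in WT females and 391 CPM in WT males, with ranges that overlap between all 4.

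Sequencing depth was alike, while the median number of genes above a fixed level was higher in Fos-high cells. Total counts ran from 2946456 to 12070780 with a median of 6375073 in Fos-high cells, and from 3105003 to 9782573 with a median of 6233416 in Fos-low cells. Genes at 10 CPM or more numbered 1499 to 7795 with a median of 4327 in Fos-high cells, and 1993 to 5504 with a median of 3475 in Fos-low cells. In the shallowest cell 10 CPM stands for 29.5 counts. This difference in detection moves with every count of cells given below, and its part in them was not tested.

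Markers of the labelled cell type were present in both groups. Lhx6, the MGE interneuron transcription factor, reached 10 CPM in 40 of 43 Fos-high cells and 17 of 19 Fos-low cells, and Gad1, an enzyme of GABA synthesis, in 40 Fos-high and 18 Fos-low cells. Pvalb, the gene of parvalbumin, reached 10 CPM in 1 Fos-high cell and in 0 Fos-low cells. Summed markers of other cell types overlapped between the groups. Microglial markers summed to 0.922 to 2412 CPM in Fos-high cells and 1.57 to 7815 CPM in Fos-low cells, with Tmem119 at 10 CPM in 0 cells of either group. Astrocyte markers summed to 4.42 to 7207 CPM in Fos-high cells and 19.6 to 8221 CPM in Fos-low cells. Red blood cell markers summed to 2.75 to 12009 CPM in Fos-high cells and 2.76 to 26898 CPM in Fos-low cells. A set of 7 cells, 4 Fos-high and 3 Fos-low, held 5000 CPM or more of markers of other cell types, and results without them are given where they differ.

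Across all genes, no gene passed the test of Fos-high over Fos-low cells. Counts were summed over the cells of each condition and Fos group, giving 4 pairs of sums, and tested with edgeR's quasi-likelihood test with condition as a term; called means a Benjamini-Hochberg adjusted p under 0.05, by edgeR unless DESeq2 is named. Of 8391 genes at 10 CPM or more in at least 10 cells, 0 were called (0%), and the lowest adjusted p was 0.280. At an unadjusted p under 0.05, 407 genes were higher in Fos-high sums (4.85%) and 73 lower (0.87%). DESeq2 called 503 of the same genes higher (5.99%) and 44 lower (0.524%), so the number of calls depends on the tool. The balance of directions depends on the scaling: with library totals in place of TMM factors the unadjusted counts were 506 higher and 13 lower, and without the condition term 180 higher and 289 lower. The median gene was 0.32 higher on the log2 scale in Fos-high sums with TMM scaling, 0.04 with median-of-ratios scaling and 0.68 with library totals. Log2 fold changes are therefore given relative to the median gene. The p-values and the SE printed with them belong to the fold change before this shift. They do not test the difference from the median gene. The edgeR p-values measure the spread between these 4 pairs, with each gene's estimate drawn towards that of other genes (12.86 prior beside 3 residual degrees of freedom). They measure no spread between animals within a condition. The sums are small, down to 3 cells for WT female and 4 cells for WT male Fos-low cells, and the biological coefficient of variation was 0.989; at that spread a count of 0 does not show that genes did not differ.

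Most other immediate early genes were found in a somewhat larger share of Fos-high cells, as were most genes, and edgeR called 0 of them and DESeq2 1, Dusp1. The lists hold 60 genes besides Fos, of which 35 passed the filter on low values. Per cell, 4 to 37 of the 60 genes reached 10 CPM in Fos-high cells with a median of 20, against 1 to 23 with a median of 12 in Fos-low cells. As a share of all genes at that level in the cell, this was 0.197 to 0.652% with a median of 0.425% in Fos-high cells, and 0.0461 to 0.715% with a median of 0.338% in Fos-low cells. The groups overlap on both measures, and every Fos-low cell held at least 1 immediate early gene at that level.

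**Figure D2:**
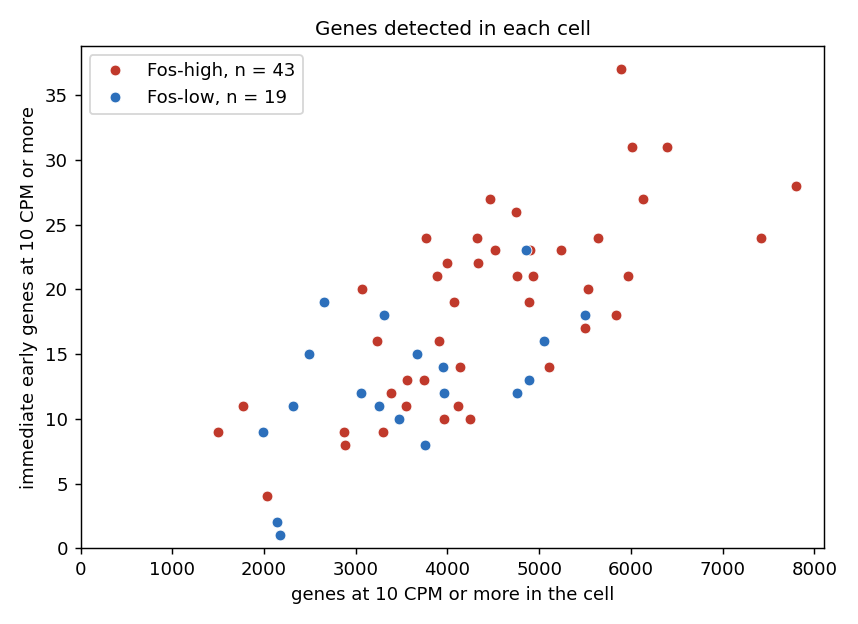
Immediate early genes at 10 CPM or more in each cell, out of 60 without Fos, against all genes at 10 CPM or more in the same cell, with 43 Fos-high and 19 Fos-low cells. Cells with more genes detected also had more immediate early genes, and the groups overlap along that line, with medians of 20 in Fos-high and 12 in Fos-low cells.

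Of the 35 tested immediate early genes, 33 (94.3%) were at 10 CPM in a larger share of Fos-high than of Fos-low cells, beside 6567 of all 8391 genes (78.3%). The median difference in share was 12.1 percentage points over the 35 genes and 9.67 points over all genes. In the summed counts the 35 genes had a median log2 fold change of 0.38 relative to the median gene; 21 lay above that gene and 14 below. Unadjusted p-values under 0.05 were found for 2 of them, Jun and Dusp1, both higher, and 0 lower, beside 4.85% of all genes higher and 0.87% lower, so the count of 2 of 35 is near the background. Higher in all 4 conditions were 4 of the 35, Myc, Dusp1, Dusp6 and Gadd45g, beside 708 of all genes (8.44%), and lower in all 4 was 1, Klf6, beside 463 of all genes (5.52%). Here and below, higher or lower in all 4 conditions or pairs refers to ratios of sums before the shift to the median gene.

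**Figure D3:**
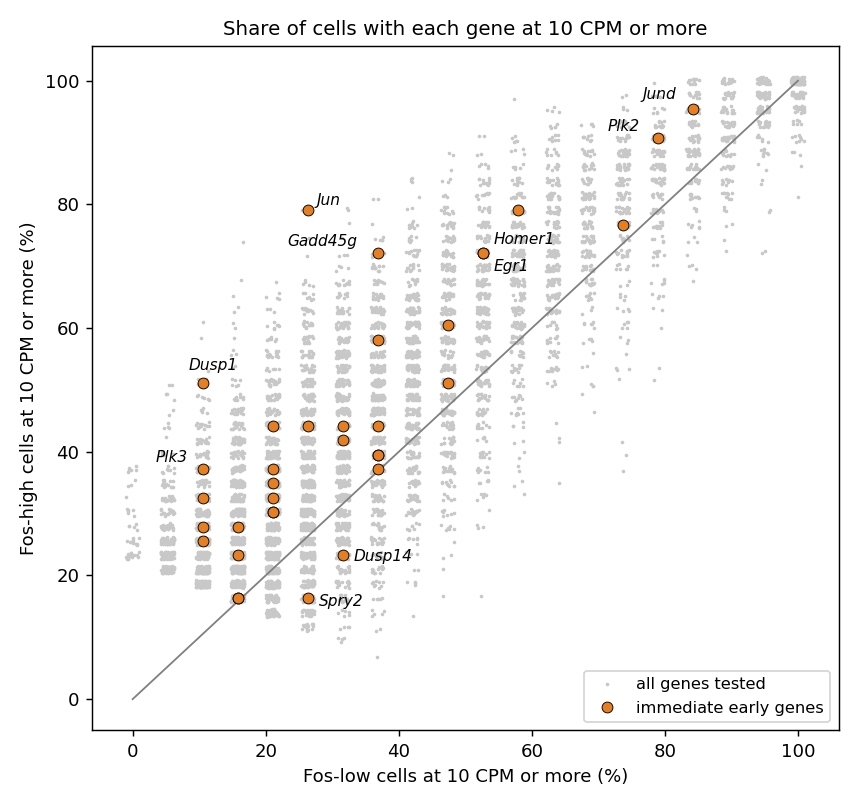
Share of Fos-high cells at 10 CPM or more (vertical) against the share of Fos-low cells (horizontal), in percent, for all 8391 genes tested (grey, moved slightly at random so that points can be seen) and for the 35 immediate early genes (orange); the line marks equal shares. Most genes of both kinds lie above the line, and Jun is the immediate early gene farthest from it.

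Among the transcription factors, Jun showed the widest gap. Jun, the AP-1 partner of Fos, lies on chromosome 4 (95049034 to 95052222, minus strand, GENCODE M21). It reached 10 CPM in 34 of 43 Fos-high cells and 5 of 19 Fos-low cells, with a median of 119 CPM in Fos-high and 2.09 CPM in Fos-low cells. The single-cell ranges overlap, since Jun reached 711 CPM among Fos-high and 491 CPM among Fos-low cells. In the sums, Fos-high cells held 118, 284, 198 and 101 CPM in Mut females, Mut males, WT females and WT males, against 11.7, 94.2, 364 and 6.13 CPM in Fos-low cells of the same order. Jun was thus higher in 3 of 4 pairs and lower in WT females, where 1 of the 3 Fos-low cells held 491 CPM. Its log2 fold change relative to the median gene was 1.81 ± 1.01 (SE, 4 pairs), and 3.22 without WT female cell 9. For the value before the shift to the median gene, edgeR gave an unadjusted p = 0.0499 and an adjusted p = 0.869. Jun was at 10 CPM in 11 of 13 Fos-high and 1 of 6 Fos-low cells of Mut females and in all 9 Fos-high and 2 of 6 Fos-low cells of Mut males. In WT females the counts were 5 of 6 Fos-high and 1 of 3 Fos-low cells, and in WT males 9 of 15 Fos-high and 1 of 4 Fos-low cells.

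Egr1, a zinc finger factor often induced together with Fos, was common in both groups. It reached 10 CPM in 31 of 43 Fos-high cells and 10 of 19 Fos-low cells, with medians of 147 CPM in Fos-high and 95.5 CPM in Fos-low cells. The Fos-high sums held 257, 171, 291 and 312 CPM in Mut females, Mut males, WT females and WT males, against 116, 248, 246 and 78.9 CPM in the Fos-low sums. These ranges overlap, and the log2 fold change relative to the median gene was 0.38 ± 0.65 (SE, 4 pairs; edgeR adjusted p = 0.978). Its sign turned when WT male cells were left out, and leaving out single cells gave between -0.004 without WT female cell 4 and 1.46 without WT female cell 9. As a description only, since Fos chose the cells, the Spearman rank correlation of Egr1 with the Fos level over 43 Fos-high cells was 0.61. This was the highest of the 35 immediate early genes, whose median was 0.02 and lowest -0.31. Cells of one condition share animals and are not independent points, so no p is given. Over the same cells Fos had a correlation of -0.16 with total counts and of -0.25 with the number of genes at 10 CPM.

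The other AP-1 genes gave mixed values. Junb reached 10 CPM in 25 Fos-high and 7 Fos-low cells, with medians of 29.7 CPM in Fos-high and 3.03 CPM in Fos-low cells. Its highest level, 2551 CPM, was in a Fos-low cell, Mut female cell 18. That cell was rich in astrocyte markers (8221 CPM) and red blood cell markers (26898 CPM). The next highest Fos-low level, 696 CPM, was in Mut female cell 20, rich in microglial markers (7815 CPM). Some Fos-high cells were rich in astrocyte markers too. Of these, Mut male cell 1 (6052 CPM of the markers) held 273 CPM of Junb. Mut female cell 2 (6455 CPM) held 233 CPM of Junb, and WT female cell 7 (7207 CPM) 1.34 CPM. Jund, the constitutively expressed member of the family, reached 10 CPM in 41 Fos-high and 16 Fos-low cells. Fosb, the close relative of Fos, reached it in 17 of 43 Fos-high cells and 7 of 19 Fos-low cells. Fosl1, another Fos relative, lay under the filter, with 9 Fos-high and 0 Fos-low cells.

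Dusp1 was the immediate early gene with the lowest unadjusted p. It encodes a nuclear phosphatase that switches off MAP kinases, and it lies on chromosome 17 (26505590 to 26562128, minus strand). It reached 10 CPM in 22 of 43 Fos-high and 2 of 19 Fos-low cells, with medians of 12.1 CPM in Fos-high and 2.07 CPM in Fos-low cells. Its Fos-high sums held 157, 96.2, 239 and 179 CPM in Mut females, Mut males, WT females and WT males, against 81.3, 1.64, 62.5 and 6.13 CPM in the Fos-low sums. All 4 Fos-high sums lay above all 4 Fos-low sums, as for 228 of all genes (2.72%); Myc was the other of the 35 with this pattern. The opposite order was shown by 0 of the 35 and by 142 of all genes (1.69%). The log2 fold change relative to the median gene was 3.08 ± 1.23 (SE, 4 pairs; edgeR unadjusted p = 0.0136, adjusted p = 0.869), and DESeq2 gave an adjusted p of 0.0251. One cell, WT male cell 11, held 66.4% of the Dusp1 counts of its sum, and without it the value was 2.61; without Mut female cell 20, a Fos-low cell rich in microglial markers, it was 4.64.

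Further effectors and regulators gave values in the same direction with wide errors. Gadd45g, a stress-inducible growth arrest gene, reached 10 CPM in 31 Fos-high and 7 Fos-low cells, with medians of 142 CPM in Fos-high and 2.60 CPM in Fos-low cells. In WT females all 6 Fos-high cells held at least 90.0 CPM of Gadd45g and the 3 Fos-low cells at most 2.34 CPM. Its log2 fold change relative to the median gene was 1.32 ± 1.11 (SE, 4 pairs; edgeR adjusted p = 0.962). Myc, a growth-related transcription factor, was at 10 CPM in 19 Fos-high and 4 Fos-low cells, with a value of 3.01 ± 1.75 (edgeR adjusted p = 0.923). Dusp6, a cytoplasmic phosphatase of ERK, was at 10 CPM in 13 Fos-high and 4 Fos-low cells, with a value of 2.68 ± 1.92 (edgeR adjusted p = 0.959). Klf6, a Krüppel-like factor, lay on the other side at -1.61 ± 0.74 (edgeR adjusted p = 0.946; -0.66 without WT male cell 10), although it was at 10 CPM in 22 Fos-high and 9 Fos-low cells.

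Several effector genes known from synaptic activity were common in both groups. Plk2, a kinase of synaptic scaling, reached 10 CPM in 39 Fos-high and 15 Fos-low cells, with medians of 656 CPM in Fos-high and 418 CPM in Fos-low cells. Homer1, a postsynaptic scaffold gene, reached it in 31 Fos-high and 10 Fos-low cells, with medians of 42.0 CPM in Fos-high and 79.2 CPM in Fos-low cells. Vgf, a secreted neuropeptide precursor, reached it in 34 Fos-high and 11 Fos-low cells, and Scg2, a granin, in 33 Fos-high and 14 Fos-low cells. Only for Spry2 and Dusp14 among the 35 genes was the share of cells higher in the Fos-low group; Spry2 was found in 7 Fos-high and 5 Fos-low cells and Dusp14 in 10 Fos-high and 6 Fos-low cells.

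The 25 immediate early genes under the filter were rare in both groups, and they are given without a test. Npas4, a neuron-specific factor tied to calcium influx, was at 10 CPM in 2 Fos-high cells and 1 Fos-low cell, and Arc, a synaptic capsid-like protein, in 4 Fos-high cells and 1 Fos-low cell. Ptgs2 and Rasd1 were at that level in 0 cells. Besides Fosl1, the genes at 5 cells or more with 0 Fos-low cells among them were Egr4 with 8 Fos-high cells, Atf3 with 7, Nptx1 with 6, and Btg2, Zfp36 and Ier3 with 5 each. The share of all genes with that pattern was not counted. Members found in both groups included Egr2 and Nptx2, each in 7 Fos-high cells and 1 Fos-low cell. Bdnf and Dusp5 were each in 7 Fos-high and 2 Fos-low cells, Egr3 in 6 and 2, and Trib1 in 5 and 3. Inhba, an activin subunit, was at 10 CPM in 3 Fos-high and 3 Fos-low cells. If the cells were independent draws, a count of 0 of 19 Fos-low cells would allow a share of up to about 15.8% (3 cells). That limit covers counting error only, and cells of the same condition share animals. These counts therefore do not show whether the genes differed between the groups.

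**Figure D4:**
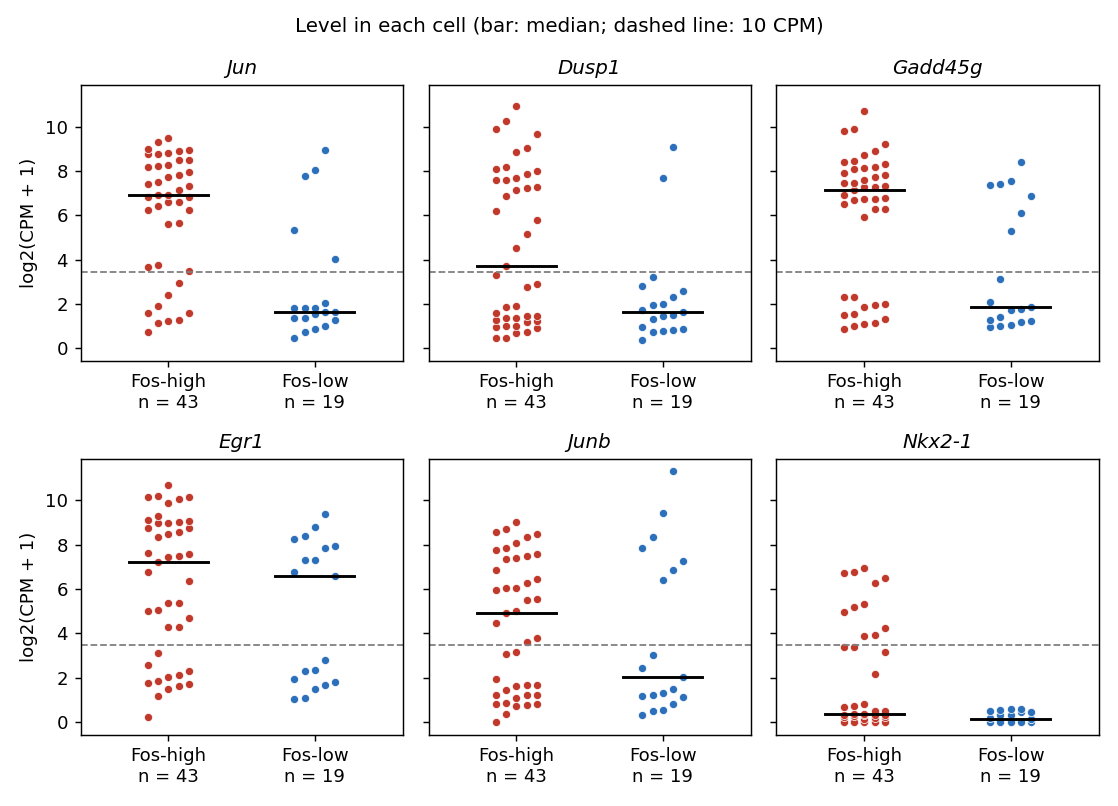
Level of 6 genes in each cell as log2(CPM + 1), with Fos-high cells left of Fos-low cells, a bar at the median and a dashed line at 10 CPM. Jun has 34 of 43 Fos-high and 5 of 19 Fos-low cells above the line, Egr1 31 and 10, and Nkx2-1 11 and 0, and for the 5 immediate early genes shown both groups hold cells that are high and cells that are low.

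The medians of the immediate early contrast varied between the condition pairs. Relative to the median gene of each pair, the log2 ratio of Fos-high over Fos-low, on log2(CPM + 1), had a median over the transcription factors of 0.21 in Mut females, -0.66 in Mut males, 1.47 in WT females and 1.88 in WT males. Over the effectors the medians were 0.37, -0.14, 1.20 and 1.53 in the same order. The WT pairs rest on 3 and 4 Fos-low cells. The test of the difference between genotypes, the Fos term in Mut over that in WT within edgeR, called 0 of 8391 genes (0%; lowest adjusted p 1); an unadjusted p under 0.05 was found for 127 genes higher and 204 lower in Mut, and DESeq2 called 375 genes. Of the 35 immediate early genes, 1, Fosl2, had an unadjusted p under 0.05 (p = 0.0499, adjusted p = 1). In that test 22 of the 35 genes lay below the median gene, with a list median of -0.72 relative to it.

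**Figure D5:**
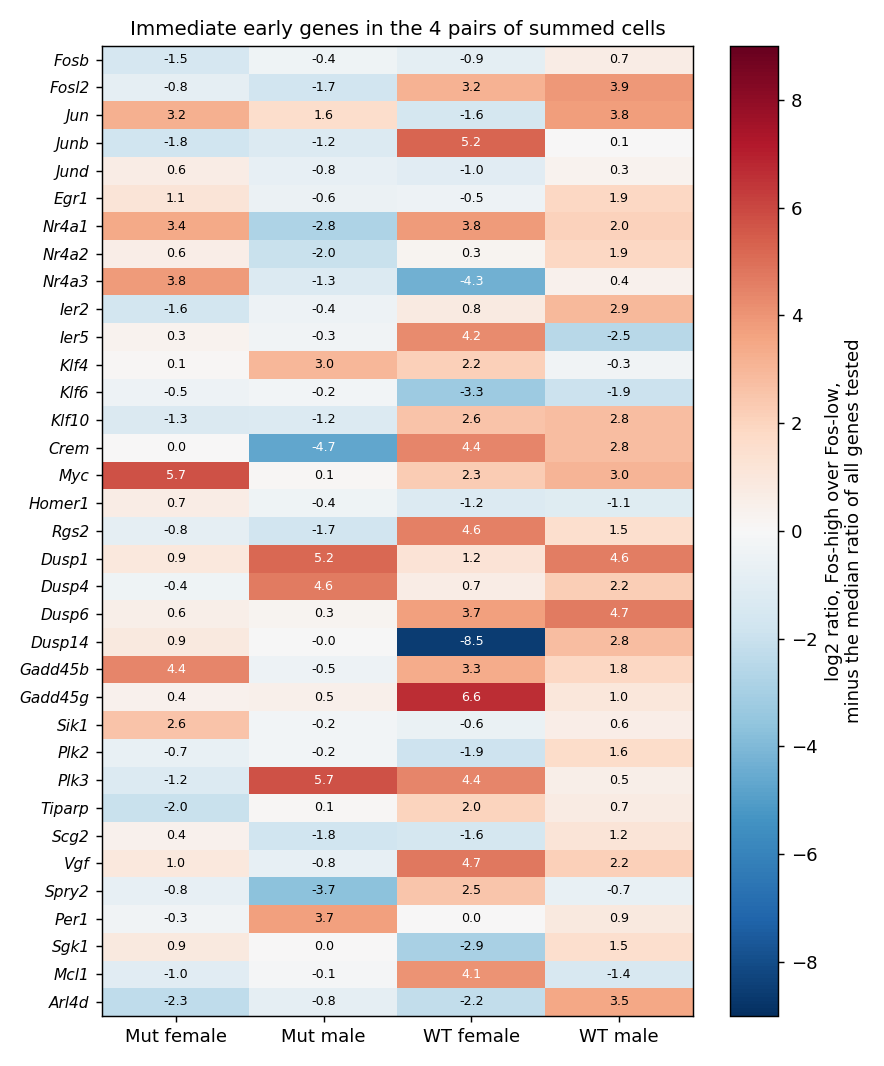
Log2 ratio of Fos-high over Fos-low sums for the 35 immediate early genes in each of the 4 conditions, on log2(CPM + 1) and less the median ratio of all genes tested in that condition; red is higher and blue lower in Fos-high sums. Myc, Dusp1, Dusp6 and Gadd45g are red in every column, and WT female, with 3 Fos-low cells, holds both the highest value, for Gadd45g, and the lowest, for Dusp14.

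Signalling genes upstream of the Fos promoter were measured in both groups, with a median below that of all genes. Of 33 list members 29 were tested, with 0 called and, by unadjusted p under 0.05, 2 that were lower and 0 that were higher, beside 0.87% of all genes lower and 4.85% higher. The list's median was -0.44 relative to the median gene, and by pair it was -0.20 in Mut females, 0.05 in Mut males, -1.40 in WT females and -0.42 in WT males. Ppp3ca, the catalytic subunit of the calcium-dependent phosphatase calcineurin, was at 10 CPM in all 43 Fos-high and all 19 Fos-low cells. Its sums held 374, 479, 641 and 816 CPM in Fos-high cells of Mut females, Mut males, WT females and WT males, against 706, 1322, 1519 and 1354 CPM in Fos-low cells. It was lower in Fos-high sums of all 4 conditions, with a log2 fold change relative to the median gene of -1.41 ± 0.34 (SE, 4 pairs; edgeR unadjusted p = 0.00599, adjusted p = 0.778). Calm2, one of the calmodulin genes, was the other member with an unadjusted p under 0.05, at -0.98 ± 0.29 (edgeR adjusted p = 0.869). Heat shock and unfolded protein genes, 13 of 18 tested, had 0 called by edgeR and 0 at an unadjusted p under 0.05 in either direction, while DESeq2 called 1, Ddit3 (adjusted p = 0.0458).

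The genes of smallest p that were higher in all 4 conditions were genes at a measurable level in a minority of Fos-high cells. The 10 higher genes were Akt1s1, Ppp1r35, Dpy19l1, Nkx2-1, Ddi2, Smpdl3a, Lrrc3, Sdhaf1, Dgki and Smim1. They were at 10 CPM in 9 to 15 Fos-high cells; Smim1 was at that level in 1 Fos-low cell and the other 9 genes in 0. Such a pattern, 10 or more cells with no Fos-low cell among them, was shown by 47 of all 8391 genes (0.56%). The 9 genes without a Fos-low cell passed the filter on low values through Fos-high cells alone, so the filter itself fixes much of their difference, and their values are given as a description with no test. In all, the Fos-high sums held 4464 counts of Ppp1r35, 3341 of Akt1s1 and 4569 of Dgki, against 9, 14 and 13 counts in the Fos-low sums.

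Nkx2-1, the transcription factor that specifies MGE progenitors and after which the Cre line is named, was one of these. It was at 10 CPM in 2 Fos-high cells each of Mut females and Mut males, 3 of WT females and 4 of WT males, against 0 Fos-low cells in each condition. The highest levels were 122 CPM among Fos-high and 0.507 CPM among Fos-low cells. Its sums held 13.1, 12.6, 21.9 and 12.95 CPM in Fos-high cells of Mut females, Mut males, WT females and WT males, against 0.245, 0.0976, 0.233 and 0.198 CPM in Fos-low cells. Nkx2-1, too, passed the filter through Fos-high cells alone, and no test is attached to it. Most Fos-high cells, 32 of 43, were below 10 CPM of Nkx2-1.

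The 10 genes lower in all 4 conditions included genes present in most cells of both groups and genes carried by single cells. Itm2b, a membrane protein gene, reached 10 CPM in 41 Fos-high and 18 Fos-low cells, with medians of 776 CPM in Fos-high and 1149 CPM in Fos-low cells and a log2 fold change of -1.74 ± 0.36 relative to the median gene (edgeR adjusted p = 0.498). Crym, a thyroid hormone binding protein, had -1.78 ± 0.46 and Sqle, an enzyme of cholesterol synthesis, -1.96 ± 0.52 (edgeR adjusted p = 0.778 for each). Hba-a2, an alpha globin gene whose reads can be shared with the near-identical Hba-a1, had -2.16 ± 0.39 (edgeR adjusted p = 0.280), and WT male cell 20 held 98.2% of the Hba-a2 counts of its sum; without that cell the value was -1.18. Polr1d, Thbs3, Prelid3a, Clmp and Zkscan3 lay between -3.78 for Thbs3 and -2.25 for Prelid3a, with edgeR adjusted p-values of 0.820 to 0.852. DESeq2 called these 5, with adjusted p-values of 0.0045 for Thbs3 to 0.0317 for Zkscan3, and Hba-a2 (0.0402). Single cells held 99.7% of the counts of a sum for Thbs3 and for Zkscan3; without WT female cell 8, Thbs3 was -2.29 and Zkscan3 -1.24.

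By the share of cells alone, 5 genes per direction stood farthest from equal shares. Higher in Fos-high cells were Jun, as above, Fbl, a nucleolar RNA methyltransferase, in 32 Fos-high and 3 Fos-low cells, Opa1, a mitochondrial fusion GTPase, in 29 and 3, Tmem184c in 26 and 2, and Pim3, a serine kinase, in 28 and 3. Higher in Fos-low cells were Pou3f1, a POU domain transcription factor, in 17 of 43 Fos-high and 14 of 19 Fos-low cells, Med13l, a Mediator subunit, in 16 and 14, Phex in 18 and 14, Ppp1ccb in 7 and 10 and Tspan14 in 7 and 9. These were picked as the extremes of 8391 genes, and no test is attached to them. Ppp1ccb is annotated as a transcribed processed pseudogene.

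Interneuron identity and subclass genes were found in both groups. Of 15 tested MGE identity genes edgeR called 0, and none apart from Nkx2-1 had an unadjusted p under 0.05 or was called by DESeq2. Of 12 tested subclass markers edgeR called 0. Apart from Elfn1 and Kit, none had an unadjusted p under 0.05 or was called by DESeq2. Nkx2-1 and Elfn1 had 0 Fos-low cells at 10 CPM and so passed the filter through Fos-high cells alone. The filter fixes much of their difference, so no test is attached to them. Kit reached 10 CPM in 11 cells, close to the filter's limit of 10 cells, so no test is attached to it either. Npy, a neuropeptide of many MGE interneurons, was at 10 CPM in 36 Fos-high and 18 Fos-low cells, with medians of 334 CPM in Fos-high and 384 CPM in Fos-low cells. Sst, the somatostatin gene, was at 10 CPM in 14 of 43 Fos-high and 7 of 19 Fos-low cells. Dlx2, an interneuron transcription factor, was at 10 CPM in 31 Fos-high and 7 Fos-low cells, with medians of 113 CPM in Fos-high and 3.17 CPM in Fos-low cells, and a log2 fold change of 2.39 ± 1.35 relative to the median gene (edgeR adjusted p = 0.900). Its direction differed between pairs, with Fos-high sums of 110, 168, 313 and 75.5 CPM in Mut females, Mut males, WT females and WT males, against 185, 69.8, 4.67 and 4.01 CPM in Fos-low sums. Elfn1, a synaptic organiser of somatostatin cells, was at 10 CPM in 10 Fos-high and 0 Fos-low cells, and Kit, a receptor tyrosine kinase, in 10 Fos-high cells and 1 Fos-low cell.

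Among genes of excitability, voltage-gated calcium channel subunits were found in a larger share of Fos-high cells for all 13 tested members of 15, beside 78.3% of all genes. Cacnb2 apart, edgeR and DESeq2 called 0 of them. Cacnb2, an auxiliary beta subunit, was at 10 CPM in 16 Fos-high and 0 Fos-low cells. It passed the filter through Fos-high cells alone, so its place among the 13 was fixed. Its counts are a description, and no test is attached to it. Cacna1a, the pore of P/Q-type channels, was at 10 CPM in 27 Fos-high and 5 Fos-low cells. The list's median was 0.18 relative to the median gene. For GABA-A receptor subunits and chloride transporters, 11 of 15 tested, edgeR called 0. Gabra4 apart, none had an unadjusted p under 0.05 or was called by DESeq2. Gabra4 was at 10 CPM in 11 cells, 10 Fos-high and 1 Fos-low, close to the filter's limit of 10 cells. The filter may fix part of its difference, so no test is attached to it. Gabra5, the subunit of tonic inhibition, was at 10 CPM in 32 Fos-high and 8 Fos-low cells, with medians of 202 CPM in Fos-high and 3.31 CPM in Fos-low cells, and was higher in all 4 pairs. Of the 11 genes, 3 were higher in all 4 pairs, beside 8.44% of all genes, and 1 was lower in all 4, beside 5.52%. Gphn, the gene that carries the studied mutation, was at 10 CPM in 27 Fos-high and 8 Fos-low cells. Sodium and potassium channel genes, 19 of 26 tested, and glutamate receptor genes, all 13 tested, had 0 called and 0 at an unadjusted p under 0.05.

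Markers of pyramidal neurons, 6 of 12 tested, had 0 called and a median of -0.90 relative to the median gene, with 3 of the 6 at 10 CPM in a larger share of Fos-high cells and 3 in a larger share of Fos-low cells; Slc17a7 was at that level in 16 Fos-high and 6 Fos-low cells, and Neurod6 in 20 Fos-high and 11 Fos-low cells. Red blood cell genes, 4 of 5 tested, had 2 lower at an unadjusted p under 0.05, Hba-a1 and Hba-a2, beside 0.87% of all genes lower, with a median of -1.37. Without the 7 cells rich in markers of other cell types, Hba-a1 and Hbb-bs changed sign. Astrocyte markers, 5 of 10 tested, had 0 called and a median of 1.26, with 3 above and 2 below the median gene. None was called among the 13 mitochondrially encoded genes, whose summed level had a median of 13693 CPM in Fos-high and 9194 CPM in Fos-low cells with overlapping ranges. Microglial, oligodendrocyte and vascular lists each had 1 tested gene. The part of these other cell types in the gene differences above was not tested beyond the removal of the 7 cells rich in their markers, after which 0 genes were called, and edgeR gave an unadjusted p under 0.05 for 401 higher and 63 lower genes, an alternative added after seeing the data.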

How the data were processed

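Contents of single cells were sequenced and quantified by the authors; kallisto and the GRCm38 build are named in the submitters' processing notes. The deposited tables hold estimated counts per gene symbol (35825 symbols), before and after the authors' quality filter, whose criterion is not given in the sources used here, and TPM. The deposited TPM values served only to repeat the Fos split. Columns of cells that the labels do not describe, 44 after and 52 before the filter, were not used.

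CPM is a cell's count over its total. Estimated counts were summed per condition and Fos group, rounded, and tested without Fos in edgeR 4.0.16 (R 4.3.3) with TMM scaling, quasi-likelihood tests and a condition term (3 residual degrees of freedom). DESeq2 1.42.0 and limma 3.58.1 were alternatives. The edgeR procedure was tested on simulated data. It called none of the changes put in at the spread of these sums, and all of them at a far smaller spread. No 2 cells correlated above 0.841, so none was counted as a duplicate. PCR copies cannot be told from molecules.

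Members and gene lists were chosen with earlier results of these data known. Named genes are the tested immediate early genes, the 10 genes per direction of smallest p with one sign in all conditions, up to 4 of smallest p from each other list, and the 5 per direction with the largest difference in share of cells. Fold changes of 48 genes were followed across the alternatives: immediate early genes at an unadjusted p under 0.2 and Egr1, other list members under 0.1, and the 10 per direction. Positions are from GENCODE M21.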

Additional observations from a re-analysis of the deposited data

Results flagged for a closer look

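For the 48 genes whose fold changes were followed, the log2 ratios of Fos-high over Fos-low sums in the 4 conditions, on log2(CPM + 1), were searched for one pair standing apart from the other 3; chance marks about 1 set in 20. Gadd45g stood apart in WT females, at 7.34. Thbs3 stood apart in WT females at -6.71 and Zkscan3 in WT females at -4.28, where 3 Fos-low cells make up the sum. Hba-a2 stood apart in Mut males at -0.97 and Hbb-bs in Mut males at 0.89, while the other 3 pairs of both globin genes were lower.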

How the results depend on the processing

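DESeq2 called 547 genes for Fos-high over Fos-low and 375 for the genotype difference, where edgeR called 0; the cause was not tested. For Fos-high over Fos-low the count was 0 under every other alternative run, also when each condition pair was left out (0 to 0); with the spread between sums as large as it is, this constancy is no sign of stability. For the genotype difference it was 1, Lars2, without a filter, and 0 to 1 with a condition pair left out, the 1 being Lars2 without Mut males. The share of Fos-high cells among Mut females was 89.5% at a threshold of 5 CPM; in no other condition did a threshold of 5 or 50 CPM move the share by more than its interval. Of 112 named genes 36 changed sign relative to the median gene under at least 1 of 18 alternatives, and of the 35 immediate early genes 14 kept their sign. Among the 48 genes with fold changes 44 kept it. Egr1 was -0.0531 with no filter and -0.0726 to 0.729 with a condition pair left out, the lowest without WT males, Klf4 was -0.16 with limma on mean log2(CPM + 1) and -0.0423 at a threshold of 50 CPM, and without the 7 cells rich in other markers, an alternative added after seeing the data, Hba-a1 was 0.00377 and Hbb-bs 0.11. No paired analysis was possible because the labels give cells no replicate numbers; the condition term pairs the sums. The limits are 4 pairs of sums, no named animal, and Fos-low sums of 3 to 6 cells.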
